A study of Mus musculus with 11 samples.

Results

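Transcripts of 10 genes of the T cell receptor complex and of regulatory T cells were followed in bulk RNA from the left ventricle of 11 mice. The genes were Cd3d, Cd3e, Cd3g, Cd4, Cd8a, Lck, Cd28, Foxp3, Il2ra and Ctla4, and all 10 were matched by symbol among the 25006 Ensembl genes counted. They were put forward with the levels of the infarcted hearts already known, in which 1 library, MI control M38, held the most T cell transcripts. What that choice used, M38 itself and the comparison of the 2 genotypes after MI, is therefore given as a description without a test, and for these genes MI is tested against naive in control mice without M38. Of the 10 genes, 9 passed the filter on low counts, and Foxp3 did not. Cd3e and Cd8a passed through the infarcted libraries and would not have passed on the naive ones, so their difference between MI and naive is in part set by the filter.

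Myocardial infarction (MI) was produced by permanent ligation of the left anterior descending coronary artery, and infarcted ventricle was taken 9 days later. Hearts of the same region without infarct were the naive groups. The groups were naive control mice (n = 2, M44 and M45), naive Vegfc-deficient mice (n = 3, M149, M150 and M34), MI control mice (n = 3, M006, M38 and M40) and MI Vegfc-deficient mice (n = 3, M35, M900 and M913), with 1 library per mouse. The Vegfc-deficient mice were Vegfc fl/fl; LysMCre, in which the lysozyme promoter drives Cre in myeloid cells, neutrophils included. The genotype field of the labels gives the control mice as Vegfc fl/fl without Cre, the protocol as LysMCre mice, and the study's text names C57BL/6 mice as well, so whether the controls carried the floxed allele or the Cre is not settled.

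The T cell receptor recognises peptide on MHC molecules but cannot signal by itself. It is assembled with the invariant CD3 chains, whose cytoplasmic tails are phosphorylated by the kinase Lck, and Lck is brought to the complex by the coreceptors CD4 and CD8. CD28 gives the costimulatory signal, CTLA-4 competes with it for the same ligands, and regulatory T cells are known for the transcription factor FOXP3, for the high-affinity interleukin 2 receptor chain CD25 (Il2ra) and for CTLA-4. In the infarcted heart, CD4+ T cells, regulatory T cells among them, are known to take part in healing.

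The libraries held 10824989 to 26782728 counted reads, and M38 was the deepest. Values are CPM, read counts scaled to the size of each library and adjusted by TMM, and 3 counts corresponded to 0.101 to 0.363 CPM. The members are low-count genes, with 170 to 845 counts over all 10 in each library except M38, where they had 5548. Vegfc, the targeted gene, did not separate the genotypes in whole tissue (22.4 to 29.4 CPM in MI Vegfc-deficient and 21.9 to 45.5 CPM in MI control hearts). Lyz2, whose locus carries the Cre, was at 2119.9 to 5377.7 CPM in the 5 control libraries and at 12.4 to 1391.3 CPM in 5 of the 6 labelled Vegfc-deficient, but at 4563.2 CPM in M149, which is labelled naive Vegfc-deficient. Lyz2 in M149 thus goes against its label, and results that rest on that library are also given without it. Every MI library had Xist at between 187.6 and 403.2 CPM and every naive library at between 0.624 and 11.8 CPM, and Y-linked genes showed the opposite, so that MI and this difference cannot be told apart in any comparison of MI with naive hearts.

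The 3 CD3 genes lie side by side on chromosome 9 of GRCm38. Cd3g (ENSMUSG00000002033, chr9:44969572-44980431, minus strand) and Cd3d (ENSMUSG00000032094, chr9:44981786-44987339, plus strand) are transcribed away from each other from starts 1355 bases apart, and Cd3e (ENSMUSG00000032093, chr9:44998740-45009627, minus strand) follows. Cd4 (ENSMUSG00000023274, chr6:124864692-124888221, minus strand) and Cd8a (ENSMUSG00000053977, chr6:71373427-71379173, plus strand) are on chromosome 6, and Lck (ENSMUSG00000000409, chr4:129548344-129573641, minus strand) is on chromosome 4. Cd28 (ENSMUSG00000026012, chr1:60716800-60773359, plus strand) and Ctla4 (ENSMUSG00000026011, chr1:60887000-60915832, plus strand) are 113641 bases apart on chromosome 1. Il2ra (ENSMUSG00000026770, chr2:11642807-11693193, plus strand) is on chromosome 2 and Foxp3 (ENSMUSG00000039521, chrX:7573644-7595245, plus strand) on the X chromosome. Counts were taken over exons, and the Foxp3 exons share 853 bases, 18.6% of their length, with those of Flicr on the same strand and 590 and 266 bases with those of Ccdc22 and Ppp1r3f on the opposite strand, so that Foxp3 counts are uncertain. The other members shared at most 25 exon bases with another counted gene.

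The 250 bases before the RefSeq start site (GRCm38.p6) are printed for the CD3 genes, because they form a gene cluster and encode the chains of a single complex, and for Cd8a, the gene with the largest excess in M38 among the receptor and coreceptor genes. Read 5′ to 3′ on the strand of each gene, they are Cd3g at chr9:44980432-44980681 (minus), Cd3d at chr9:44981536-44981785 (plus), Cd3e at chr9:45009612-45009861 (minus) and Cd8a at chr6:71373177-71373426 (plus). Capitals mark matches of the motifs searched, on either strand.
Cd3g: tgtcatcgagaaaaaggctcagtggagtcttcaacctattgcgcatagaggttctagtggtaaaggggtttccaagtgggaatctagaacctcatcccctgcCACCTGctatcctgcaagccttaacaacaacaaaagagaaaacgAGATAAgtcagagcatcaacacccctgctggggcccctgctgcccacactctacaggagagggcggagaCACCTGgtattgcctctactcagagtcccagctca
Cd3d: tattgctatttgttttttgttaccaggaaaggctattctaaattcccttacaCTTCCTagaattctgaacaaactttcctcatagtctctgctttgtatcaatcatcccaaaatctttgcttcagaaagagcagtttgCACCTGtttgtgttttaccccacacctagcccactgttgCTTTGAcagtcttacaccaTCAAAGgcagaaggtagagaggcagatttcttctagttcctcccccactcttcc
Cd3e: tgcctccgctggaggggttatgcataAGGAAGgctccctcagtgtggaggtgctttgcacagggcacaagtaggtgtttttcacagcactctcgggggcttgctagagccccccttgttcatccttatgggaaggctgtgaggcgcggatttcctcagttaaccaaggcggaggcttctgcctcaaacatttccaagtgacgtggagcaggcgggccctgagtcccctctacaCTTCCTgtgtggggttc
Cd8a: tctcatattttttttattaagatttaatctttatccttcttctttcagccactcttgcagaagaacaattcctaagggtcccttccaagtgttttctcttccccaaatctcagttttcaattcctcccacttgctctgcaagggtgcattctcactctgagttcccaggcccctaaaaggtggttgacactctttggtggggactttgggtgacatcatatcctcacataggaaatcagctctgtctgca
The 6 motifs searched on both strands were the ETS core AGGAAG, the RUNX core TGTGGT, the TCF core CTTTGA, the GATA core AGATAA and the E-boxes CAGCTG and CACCTG, and no marked matches overlapped. Of 32851 promoter windows of the same length, 29.5% held the ETS core, 14.0% the RUNX core, 13.8% the TCF core, 9.99% the GATA core and 13.0% and 17.2% the E-boxes. The Cd3g window held 2 matches of CACCTG and 1 of the GATA core, the Cd3d window 1 of the ETS core, 2 of the TCF core and 1 of CACCTG, and the Cd3e window 2 of the ETS core. None of these letters occurred in the Cd8a window. RefSeq windows were found for 8 of the 10 members, all except Cd4 and Cd28.

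Transcripts of the CD3 chains were nearly absent from naive control hearts and higher in infarcted control hearts. Values of a group are listed in the order in which its libraries are named above. Cd3e, the epsilon chain, which pairs with both the delta and the gamma chain, had 0 counts in both naive controls and was at 0.098, 0.121 and 0.325 CPM in naive Vegfc-deficient hearts. Infarcted hearts had 1.72, 10.4 and 0.807 CPM when control and 1.47, 1.76 and 0.621 CPM when Vegfc-deficient. Every MI library lay above every naive library, and M38 stood 5.89 times above the next highest. Within control mice alone, MI lay above naive without overlap for 39.1% of all genes, and within Vegfc-deficient mice for 33.6%.

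Cd3d, the delta chain, was at 0.713 and 0.725 CPM in naive control hearts and at 2.84, 1.94 and 2.68 CPM in naive Vegfc-deficient hearts. After MI it was at 4.25, 23.7 and 2.20 CPM in controls and at 1.82, 3.60 and 3.15 CPM in Vegfc-deficient hearts. Cd3g, the gamma chain, was at 1.69 and 1.72 CPM in naive control, 3.43, 4.36 and 6.18 CPM in naive Vegfc-deficient, 10.7, 47.6 and 3.52 CPM in MI control and 4.64, 7.25 and 4.64 CPM in MI Vegfc-deficient hearts. For both genes the MI controls lay above the naive controls without overlap, whereas the naive and MI Vegfc-deficient groups overlapped.

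Lck and the coreceptors were low in all naive hearts. Lck, the kinase that starts receptor signalling, was at 0.624 and 0.906 CPM in naive control and at 0.980, 1.69 and 2.93 CPM in naive Vegfc-deficient hearts, and after MI at 6.40, 37.2 and 4.22 CPM in control and 5.29, 6.83 and 5.22 CPM in Vegfc-deficient hearts. Cd4, the coreceptor for MHC class II, was at 1.16 and 1.36 CPM and at 0.588, 1.94 and 1.55 CPM in the naive groups, and at 4.90, 10.5 and 2.53 CPM and 4.29, 4.02 and 4.89 CPM in the MI groups. Cd8a, the coreceptor for MHC class I, was at 0.446 and 0.725 CPM and at 0.490, 1.21 and 0.651 CPM in the naive groups, and at 2.04, 33.8 and 2.31 CPM and 2.64, 5.74 and 3.93 CPM in the MI groups. In each of these genes all 6 MI libraries exceeded all 5 naive libraries. The share of all genes that did so over both genotypes is not given here. It was 39.1% within control and 33.6% within Vegfc-deficient mice. Cd8b1, which encodes the partner chain of CD8 on T cells and was singled out after its values were seen, had 794 counts in M38 and 35 to 137 in the other MI libraries, where Cd8a had 1001 and 38 to 137.

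Of the costimulation and regulatory genes, Cd28 and Il2ra did not follow the receptor genes. Cd28 was at 6.33 and 5.89 CPM in naive control, 10.9, 3.39 and 3.74 CPM in naive Vegfc-deficient, 3.77, 8.21 and 3.56 CPM in MI control and 4.88, 2.64 and 2.94 CPM in MI Vegfc-deficient hearts, so its highest value was in a naive heart, M149. Il2ra was at 3.57 and 4.80 CPM, 3.72, 5.32 and 4.07 CPM, 4.57, 6.62 and 1.21 CPM, and 2.88, 2.89 and 2.48 CPM in the same groups. All 3 MI Vegfc-deficient libraries lay below all 3 naive Vegfc-deficient ones for Il2ra, and the control groups overlapped.

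Ctla4 was at 0.624 and 2.08 CPM in naive control, 2.06, 1.33 and 1.87 CPM in naive Vegfc-deficient, 0.538, 7.13 and 0.110 CPM in MI control and 1.35, 0.419 and 0.331 CPM in MI Vegfc-deficient hearts. M38 was the highest of all 11 libraries, and the other 5 MI hearts, at 0.110 to 1.35 CPM, overlapped the lower part of the naive range of 0.624 to 2.08 CPM. Foxp3 had 0 and 2 counts in naive control, 0, 0 and 3 in naive Vegfc-deficient, 0, 68 and 7 in MI control and 7, 6 and 3 in MI Vegfc-deficient libraries. It was thus at or under the floor of 3 counts in 7 of 11 libraries, and 70.8% of all Foxp3 counts came from M38.

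**Figure D1:**
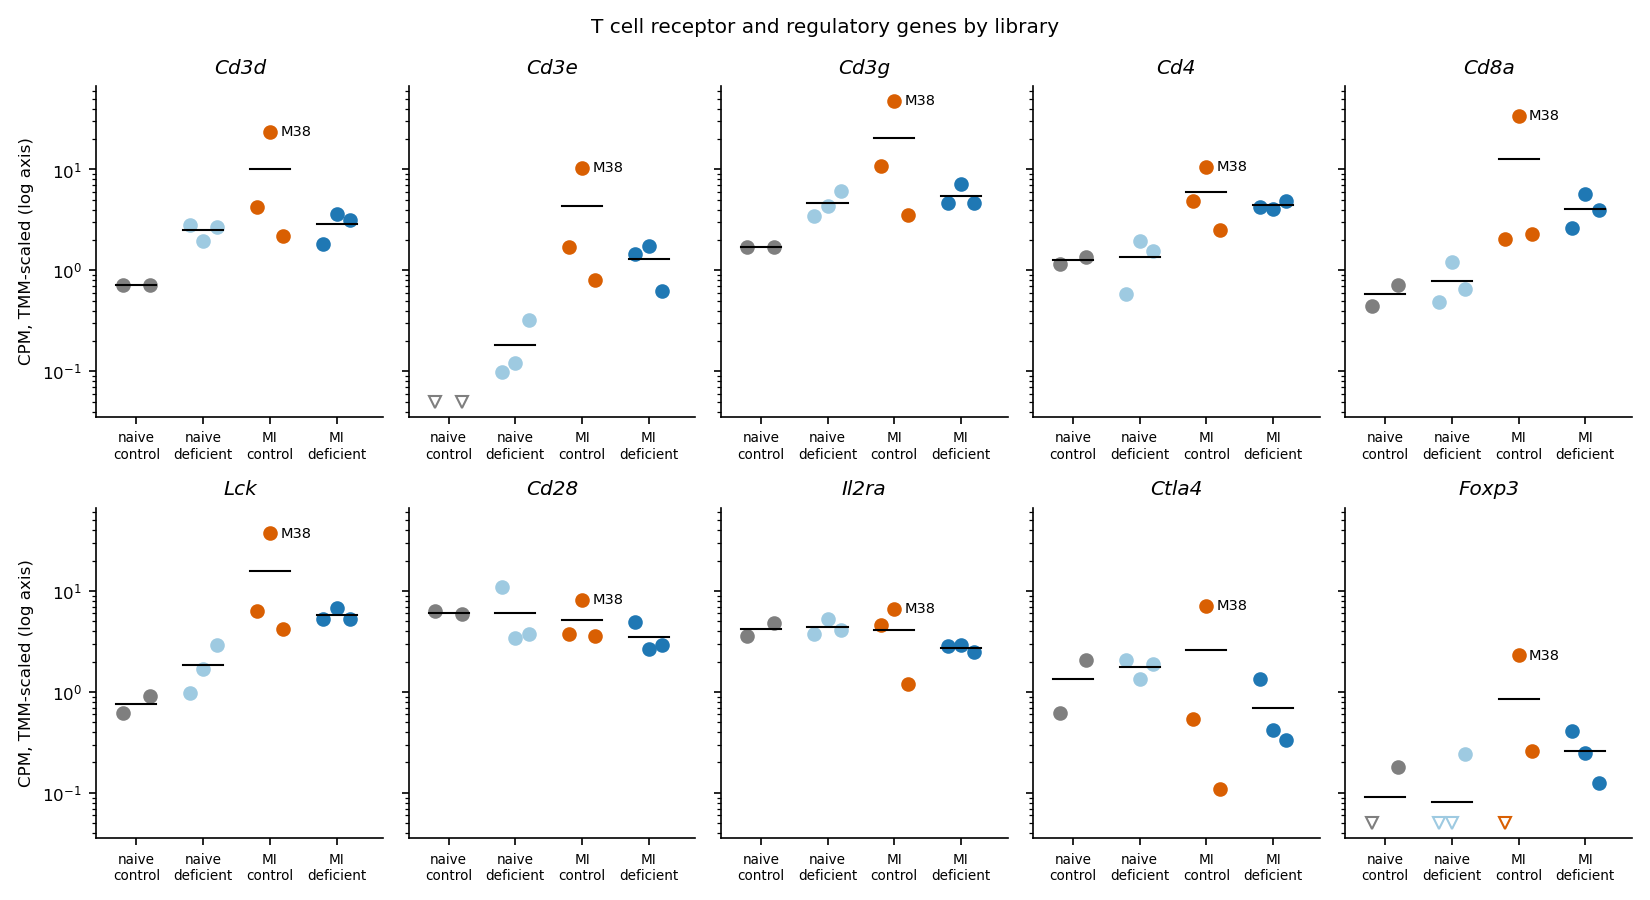
Expression of each gene in every library, in TMM-scaled CPM on a log axis, by group. Filled points are libraries, horizontal bars are group means and open triangles at the bottom are libraries with 0 counts. M38 is the highest MI library in all 10 panels, and the other MI libraries lie within or below the naive range for Cd28, Il2ra and Ctla4.

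Per kilobase of merged exon, the order of mean levels differed between naive and infarcted controls. In naive control hearts Cd28 was highest at 0.998 CPM per kb, then Il2ra at 0.733 and Ctla4 at 0.581, all above Cd3g at 0.522 CPM per kb. In MI control hearts Cd3g led at 6.30 CPM per kb, followed by Cd3d at 5.54, Lck at 5.44 and Cd8a at 3.50, and these means rest mostly on M38. In MI Vegfc-deficient hearts Lck at 1.97, Cd3g at 1.69, Cd3d at 1.57, Cd8a and Cd4 were the 5 highest, with Cd4 at 1.09 CPM per kb. Cd3e was lower per kb than its partner chains in every group, at 1.05 CPM per kb in MI control and 0.315 in MI Vegfc-deficient hearts. Given the spreads, neighbours such as Cd3g, Cd3d and Lck in the MI groups cannot be ordered. Foxp3 was at most at 0.186 CPM per kb, in MI control hearts.

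In control mice, MI against naive asks which of these transcripts accompany infarction when myeloid Vegfc is intact. All 3 CD3 chains, both coreceptors and Lck were higher after MI. With all 11 libraries the log2 fold change was 3.799 for Cd3d, 3.59 for Cd3g, 2.25 for Cd4, 4.43 for Cd8a and 4.37 for Lck. Cd3e, with 0 counts in both naive controls, was at least 35.5-fold higher when 3 counts over the group were taken as the floor. The groups of these 6 genes did not overlap, which held in the same direction for 39.1% of genes. Cd3e and Cd8a are not counted against that share, because of the filter. These values contain M38, which gave 37.7% (Cd4) to 70.7% (Cd8a) of all counts of the 6 genes, and no test is read from them. Of the 14779 genes, 26.3% were called higher with M38 included. Of all calls 52.1% were higher, and 76.2% when libraries were scaled by their plain totals instead. In bulk tissue, fewer cells of a type and less RNA per cell cannot be told apart.

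Without M38 the 6 genes were called higher, with smaller folds, where 23.3% of all genes were called higher. Cd3e and Cd8a passed the filter only through the infarcted libraries and are not counted against that share. Of the 7 members that passed on the naive libraries alone, Cd3d, Cd3g, Cd4 and Lck were called. The log2 fold changes then were 2.08 for Cd3d (SE 0.49), 1.97 for Cd3g (SE 0.53), 1.48 for Cd4 (SE 0.50), 1.82 for Cd8a (SE 0.53) and 2.72 for Lck (SE 0.50), and Cd3e was at least 8.74-fold higher. Adjusted p-values were 0.00738 for Cd3d, 0.00468 for Cd3e, 0.0137 for Cd3g, 0.0361 for Cd4, 0.0192 for Cd8a and 0.00242 for Lck (edgeR, Benjamini-Hochberg adjustment). These 6 calls were made with both naive controls. When M44 or M45 was left out as well, a lone naive control remained, so only the log2 fold changes of those fits are given. The log2 fold changes without M44 and without M45 were 2.09 and 2.11 for Cd3d and 1.985 and 2.00 for Cd3g. They were 1.40 and 1.62 for Cd4, 1.54 and 2.23 for Cd8a and 2.50 and 3.025 for Lck. Cd28, at a log2 fold change of -0.80 (SE 0.56, adjusted p = 0.26), Il2ra, at -0.62 (SE 0.52, adjusted p = 0.349), and Ctla4, at -2.18 (SE 0.94, adjusted p = 0.0818), were not called by edgeR with Benjamini-Hochberg adjustment. Cd28 and Ctla4 were lower in both remaining MI controls than in both naive controls, as were 37.7% of genes. With M38 the 3 genes were at -0.23, -0.016 and 0.95. The median over the 9 members was 3.59, beside 0.13 over all genes tested, and 1.82 beside 0.074 without M38. Cd3e and Cd8a, which passed the filter only through the infarcted libraries, are among the 9, and 1.82 is the value of Cd8a. The first median contains M38 as well, so neither is read against that of all genes.

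Lists of other cells moved in the same comparison. Without M38, 3 of 6 NK cell markers (median log2 fold change 1.81), 6 of 8 macrophage markers (1.02) and 3 of 10 dendritic cell and MHC class II markers (0.83) were called higher, and all 6 cardiomyocyte markers were called lower (-3.82), by edgeR with Benjamini-Hochberg adjustment. Of all genes 23.3% were then called higher, and the dendritic cell count is near that share. With M38 the counts were 6 of 6, 6 of 8 and 6 of 10 higher and 6 of 6 lower, where 26.3% of all genes were called higher. The share of all genes called lower is not given here. The part of these lists in the levels of the T cell genes was not tested.

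In mice labelled Vegfc-deficient, MI against naive asks the same question. Cd4 was the member called, with a log2 fold change of 1.70 (SE 0.54, adjusted p = 0.0203, edgeR with Benjamini-Hochberg adjustment). This is 1 of 9 members where 30% of all genes were called higher. Of all calls 52% were higher, and 75.5% with plain library totals, under which Cd3e, Cd8a and Lck were called as well. Cd3e at 2.70 (SE 1.16), Cd8a at 2.42 (SE 1.09) and Lck at 1.61 (SE 0.77) had adjusted p-values of 0.0713, 0.0791 and 0.0948 by edgeR with Benjamini-Hochberg adjustment. Cd3e, Cd4, Cd8a and Lck were higher in all 3 MI than in all 3 naive libraries, as were 33.6% of all genes. Cd3e and Cd8a are not counted against that share, because of the filter. Cd3d at 0.20 (SE 0.75) and Cd3g at 0.24 (SE 0.74) were close to 0, with naive Vegfc-deficient levels of 1.94 to 2.84 and 3.43 to 6.18 CPM that the MI levels overlapped. Cd28 at -0.79 (SE 0.50), Il2ra at -0.66 (SE 0.49) and Ctla4 at -1.37 (SE 1.19) were fitted lower, with adjusted p-values of 0.192, 0.266 and 0.346 by edgeR with Benjamini-Hochberg adjustment. For Il2ra the groups did not overlap, as for 30.7% of genes in that direction.

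M38 belongs to neither group of this comparison but enters the spread that all groups share. Without it, Cd3e (2.66, adjusted p = 0.0108), Cd4 (1.68, adjusted p = 0.00684), Cd8a (2.39, adjusted p = 0.00127) and Lck (1.58, adjusted p = 0.00557) were called by edgeR with Benjamini-Hochberg adjustment. Of all genes 29.5% were then called higher. Cd3e and Cd8a are not counted against that share, since they passed the filter only through the infarcted libraries. Without M149, whose Lyz2 goes against its label, no member was called, and the log2 fold changes of Cd3e, Cd4, Cd8a and Lck were 2.40, 1.34, 2.18 and 1.29. Without both M149 and M38 these 4 were called (2.36, SE 0.80, adjusted p = 0.0361 for Cd3e, 1.32, SE 0.37, adjusted p = 0.0146 for Cd4, 2.15, SE 0.48, adjusted p = 0.00541 for Cd8a and 1.27, SE 0.35, adjusted p = 0.0134 for Lck, edgeR with Benjamini-Hochberg adjustment), where 29.9% of genes were called higher. Cd3e and Cd8a are again not counted against the 29.9%. Among the other lists, 1 of 6 NK cell, 6 of 8 macrophage and 3 of 10 dendritic cell and MHC class II markers were called higher with all libraries, and 6 of 6 cardiomyocyte markers lower. With 30% of all genes called higher, the NK cell and dendritic cell counts were near or below that share. Without M913 no member was called. Without M006 Cd4 and Cd8a were called, and without M40 Cd3e, Cd4, Cd8a and Lck. Whether the response to MI differed between genotypes was not tested for these genes, because that difference contains the comparison that chose them.

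**Figure D2:**
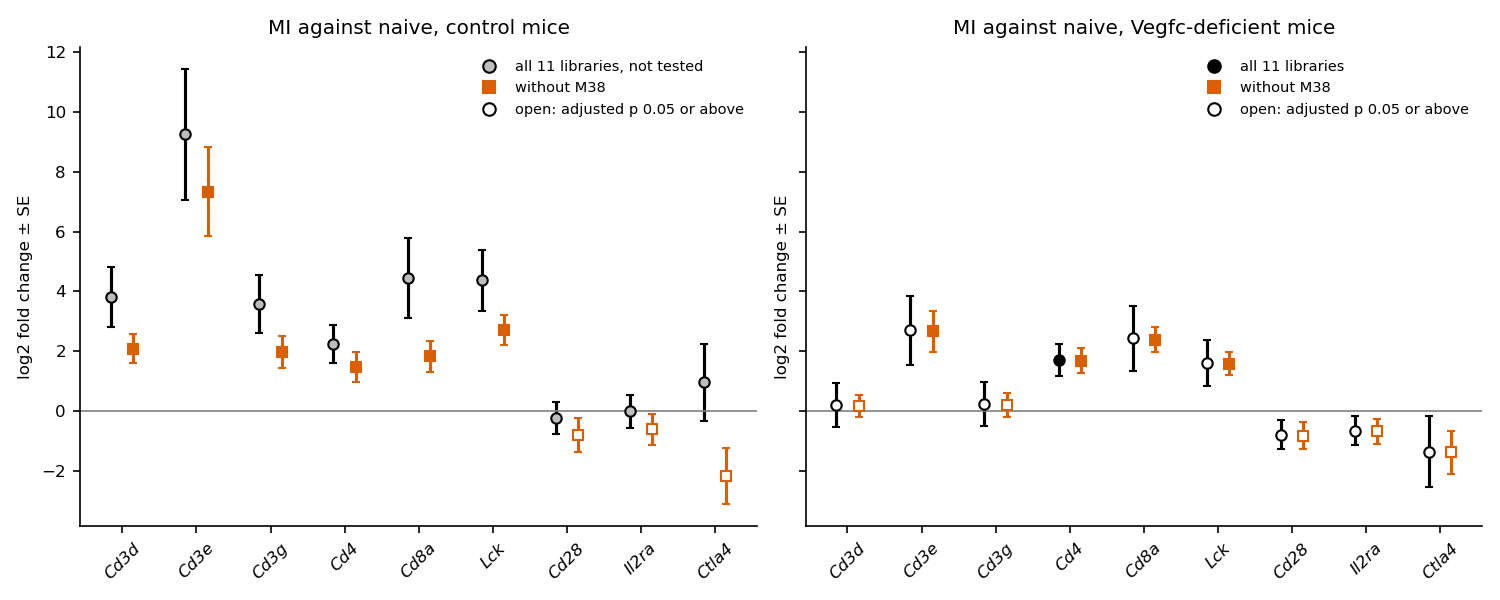
Log2 fold change of MI against naive hearts for the 9 genes tested, in control and in Vegfc-deficient mice, with bars of 1 SE, from all 11 libraries (circles) and without M38 (orange squares). Black or orange filled symbols have an adjusted p under 0.05, open ones do not, and grey filled ones contain M38 and are not tested. The fitted Cd3e value in control mice (9.25, or 7.33 without M38) is against 0 counts and is no measure of size. The CD3 chains Cd3d and Cd3g sit near 0 in Vegfc-deficient mice and at 1.97 or more in control mice.

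In hearts without infarct, Cd3d and Cd3g were higher in all 3 libraries labelled Vegfc-deficient than in both controls, but no difference passed the test. Lck was also higher in all 3, though M149 had 10 Lck counts, as many as control M45, and Cd3e had 1, 1 and 4 counts against 0 and 0. Groups did not overlap in this direction for 12.3% of all genes, and the members are not counted against that share, since Cd3e entered the test through the infarcted hearts. Cd3d was at 2.49 ± 0.484 CPM (SD, n = 3) in Vegfc-deficient and 0.719 ± 0.00803 CPM (SD, n = 2) in control hearts, and Cd3g at 4.66 ± 1.40 and 1.71 ± 0.0191 CPM. The log2 fold changes were 1.79 (SE 0.998) for Cd3d, 1.45 (SE 0.95) for Cd3g and 1.30 (SE 1.03) for Lck, each with an adjusted p = 1 (edgeR, Benjamini-Hochberg). The test called 0 of 14779 genes, 499 (3.38%) had an unadjusted p under 0.05, none of them a member, and DESeq2 called 14 genes and 0 members. Without M38, which is in neither group, no member was called either. Cd3d, Cd3e, Cd3g and Lck then had an unadjusted p under 0.05 by edgeR, as did 4% of all genes. For the same reason, these members are not counted against that share. Cd4, Cd8a, Cd28, Il2ra and Ctla4 had log2 fold changes between -0.023 and 0.38 with SEs of 0.55 to 1.46. M149, whose Lyz2 goes against its label, held the highest Cd3d and Cd28 of its group and the lowest Cd3e, Cd3g, Lck, Cd4 and Cd8a. Without it the log2 fold changes were 1.69 for Cd3d, 1.63 for Cd3g and 1.61 for Lck, and no member was called, also when M38 was left out too.

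After MI, all 9 genes were fitted lower in Vegfc-deficient than in control hearts, and leaving out M38 removed this. The fitted log2 fold changes ran from -1.94 for Ctla4 (SE 1.15) to -0.45 for Cd4 (SE 0.48), with a median of -1.63, beside -0.007 over all genes. The CD3 chains were at -1.81 (Cd3d), -1.75 (Cd3e) and -1.90 (Cd3g), Cd8a at -1.63, Lck at -1.47, Cd28 at -0.58 and Il2ra at -0.59. No member had groups without overlap, as against 6.12% of all genes lower and 5.99% higher. No gene of 14779 was called by edgeR (0%), 1173 (7.94%) had an unadjusted p under 0.05, and DESeq2 called 51. These counts are the background only, and nothing is read from them for genes chosen on this comparison.

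Without M38, 5 members were fitted higher and 4 lower in Vegfc-deficient hearts, with a median of 0.061 beside 0.025 over all genes. Cd8a was then at 0.94 (SE 0.42) and Ctla4 at 1.17 (SE 0.87), whereas Cd3d at -0.13 (SE 0.39), Cd3e at 0.061 (SE 0.58), Cd3g at -0.32 (SE 0.43), Lck at 0.16 (SE 0.38), Cd4 at 0.28 (SE 0.42), Cd28 at -0.043 (SE 0.50) and Il2ra at -0.020 (SE 0.47) were within 1 SE of 0. Cd8a was the member whose 3 Vegfc-deficient values, 2.64 to 5.74 CPM, all lay above the remaining MI controls, 2.04 and 2.31 CPM, as did those of 11.3% of genes in that direction.

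**Figure D3:**
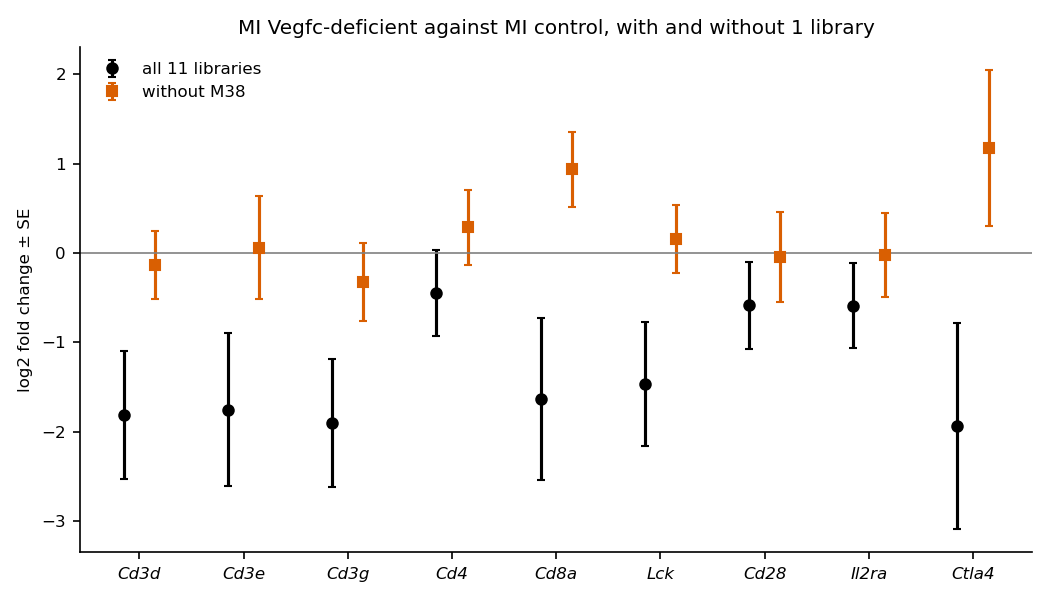
Log2 fold change of MI Vegfc-deficient against MI control hearts with bars of 1 SE, from all 11 libraries (black circles) and without M38 (orange squares). All 9 values are below 0 with M38, and without it 5 are above and 4 below.

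Summed over the members, M38 carried T cell transcripts in amounts no other library approached. Cd28 alone was higher elsewhere, at 10.9 CPM in naive M149 against 8.21 CPM in M38. The summed level of the 10 genes was 187.5 CPM in M38, 20.7 to 38.8 CPM in the other 5 MI libraries and 15.2 to 25.1 CPM in naive hearts, so that M38 stood 4.83 times above the next and 6.32 times above the median of the other MI hearts. All 10 genes were higher in M38 than in each of the other 5 MI libraries, which held for 19.6% of all genes tested. Relative to the median of the other MI hearts, the excess was 17.0-fold for Ctla4, 12.8-fold for Cd8a, 10.3-fold for Cd3g, 9.14-fold for Foxp3, 7.54-fold for Cd3d, 7.07-fold for Cd3e and 7.03-fold for Lck. It was 2.46-fold for Cd4, 2.31-fold for Cd28 and 2.30-fold for Il2ra. M38 gave between 25.6% (Cd28) and 70.8% (Foxp3) of all counts of a member over the 11 libraries.

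Transcripts of other lymphoid and antigen-presenting cells were also high in M38. The 15 cytotoxic and effector T cell genes summed to 371.7 CPM there and to 38.1 to 66.1 CPM in the other MI hearts, with 13 of 15 above all 5 of them. The 6 NK cell markers summed to 89.0 against 10.1 to 24.2 CPM, with 5 of 6 above, and the 10 dendritic cell and MHC class II markers to 11984.5 against 1743.0 to 2595.2 CPM, with 8 of 10 above. Xcr1, a chemokine receptor of cross-presenting dendritic cells, was at 19.5 CPM in M38 and 3.08 to 5.97 CPM in the other MI hearts. The 7 B cell markers counted summed to 32.2 CPM, within the 24.6 to 40.2 CPM of the other MI hearts, and the macrophage list to 5967.1 against 2262.4 to 4945.4 CPM.

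Summed markers of tissues that could be taken along with the heart were within the range of the other MI hearts. Single genes lay above all 5 of them for 0 of 10 thymus, 2 of 7 lymph node stroma, 0 of 5 lung epithelium and 0 of 6 cardiomyocyte markers, beside 19.6% of all genes. The 10 thymus markers summed to 10.7 CPM in M38 and to 10.4 to 13.1 CPM in the other MI hearts, and Rag1, Rag2, Ptcra, Foxn1 and Psmb11 had 0 counts in M38. The 7 lymph node stroma markers summed to 3.24 CPM in M38 and to 2.98 to 17.1 CPM in the other MI hearts, and Ccl21a had 0 counts in all 11 libraries. The 5 lung epithelium markers summed to 1.86 against 1.01 to 2.38 CPM. Only 3 of 10 thymus, 4 of 7 lymph node stroma and 2 of 5 lung epithelium markers passed the filter on low counts, so these sums rest on few genes. The 6 cardiomyocyte markers summed to 10713.1 CPM, within the range of 2147.0 to 21274.4 CPM of the other MI hearts and below the 56693.2 to 80038.8 CPM of naive hearts. The part of these lists in the level of the T cell genes was not tested.

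**Figure D4:**
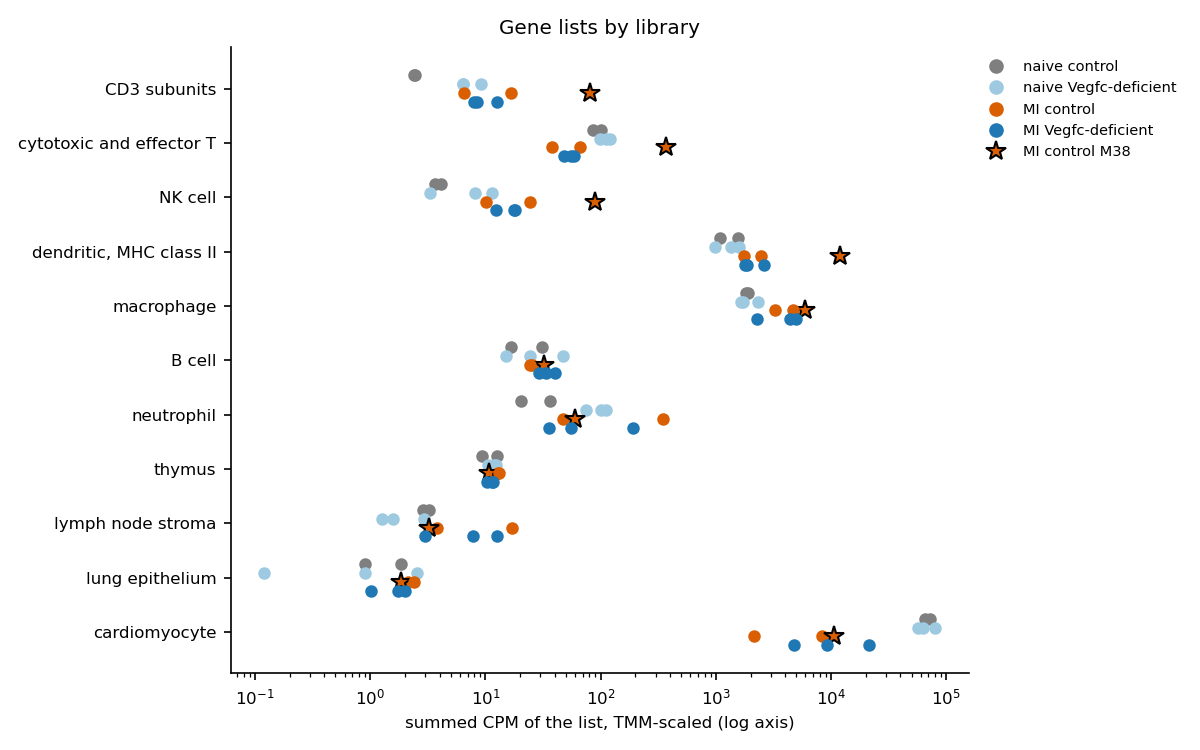
Summed TMM-scaled CPM of the CD3 genes and of marker lists in every library, on a log axis, coloured by group, with M38 as a star. M38 lies to the right of all other MI libraries for CD3, cytotoxic, NK and dendritic or MHC class II genes and among them for B cell, thymus, lymph node stroma, lung and cardiomyocyte markers.

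The makeup of the T cell transcripts, taken as ratios of raw counts within a library, removes the amount and leaves the proportions. Intervals are exact 95% binomial intervals that cover counting error only. Of the joint counts of Cd4 and Cd8a, Cd8a made 76.2% in M38 (73.8 to 78.5%), between 29.5% in M006 (21.8 to 38.1%) and 58.8% in M900 (52.2 to 65.2%) in the other MI hearts, and 27.8 to 45.5% in naive hearts, where as few as 11 counts set the value. The interval of M38 overlapped that of no other MI library, and those of M006 and M900 did not overlap each other.

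Per 100 counts of the 3 CD3 chains, M38 held 12.9 counts of Cd4 (11.4 to 14.5) and the other MI hearts 29.4 to 58.1, whereas Cd8a was at 41.4 (38.4 to 44.6) in M38 and at 12.3 in M006 and 33.3 to 46.8 in the rest. Per CD3 count, Cd8a in M38 was thus within the range of the other MI hearts and Cd4 was below all of them. Cd28, at 10.1 (8.77 to 11.5), and Il2ra, at 8.11 (6.97 to 9.38), were also lower per CD3 count in M38 than in the other MI hearts, at 20.9 to 61.5 and 18.5 to 36.3. Ctla4 was at 8.73 (7.55 to 10.1) in M38, between 1.69 in M40 and 17.0 in M35. Lck was at 45.5 (42.3 to 48.9) in M38 and at 38.5 to 66.7 in the others.

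Foxp3 relative to CD3 did not set M38 apart. It was at 2.81 per 100 CD3 counts in M38 (2.18 to 3.58), 3.93 in M40 (1.56 to 8.27), 5.19 in M35 (lower bound 2.05), 1.99 in M900 (0.726 to 4.39) and 1.48 in M913 (0.302 to 4.38), and these intervals overlapped that of M38. M006 was the exception, with 0 Foxp3 counts beside 309 CD3 counts, an upper limit of 1.20 that lies below the interval of M38.

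In naive hearts the ratios rested on few counts, and those of Cd4, Cd8a and Cd28 overlapped the ratios of infarcted hearts. By their values alone, Ctla4, at 20.4 to 85.2 per 100 CD3 counts, and Il2ra were above every MI heart, and Lck, at 15.4 to 37.0, was below every MI heart. The intervals of single libraries overlapped in each case. For Lck they were 16.0 to 79.0 in M45 and 30.9 to 47.7 in M006. For Ctla4 they were 9.78 to 40.2 in M150 and 10.4 to 26.6 in M35, and for Il2ra 31.1 to 62.3 in M34 and 25.6 to 50.7 in M35. Cd28 stood at 263.0 and 240.7 and Il2ra at 148.1 and 196.3 counts per 100 CD3 counts in M44 and M45, on only 27 CD3 counts each, and at 40.7 to 170.8 and 44.2 to 83.0 in naive Vegfc-deficient hearts. Cd3e made 2.11% (0.776 to 4.53%) of the CD3 counts pooled over the 5 naive libraries, 6 of 285, but 12.5% (11.4 to 13.6%) over the 6 MI libraries, 443 of 3543, and 12.1% (10.2 to 14.1%) over MI libraries without M38. In single libraries the values were 0 to 3.54% in naive and 7.39 to 18.5% in MI hearts, without overlap. Their intervals did overlap, at 0 to 12.8% in M44 and in M45, 0.973 to 8.82% in M34 and 4.19 to 11.9% in M913. Cd3d made 33.0% (27.6 to 38.8%) of the pooled naive and 29.2% (27.7 to 30.7%) of the pooled MI CD3 counts. Pooled, the Cd3d and Cd3g counts of naive hearts thus came with less Cd3e than those of infarcted hearts. The counts of the control libraries alone are too few to settle this for them.

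**Figure D5:**
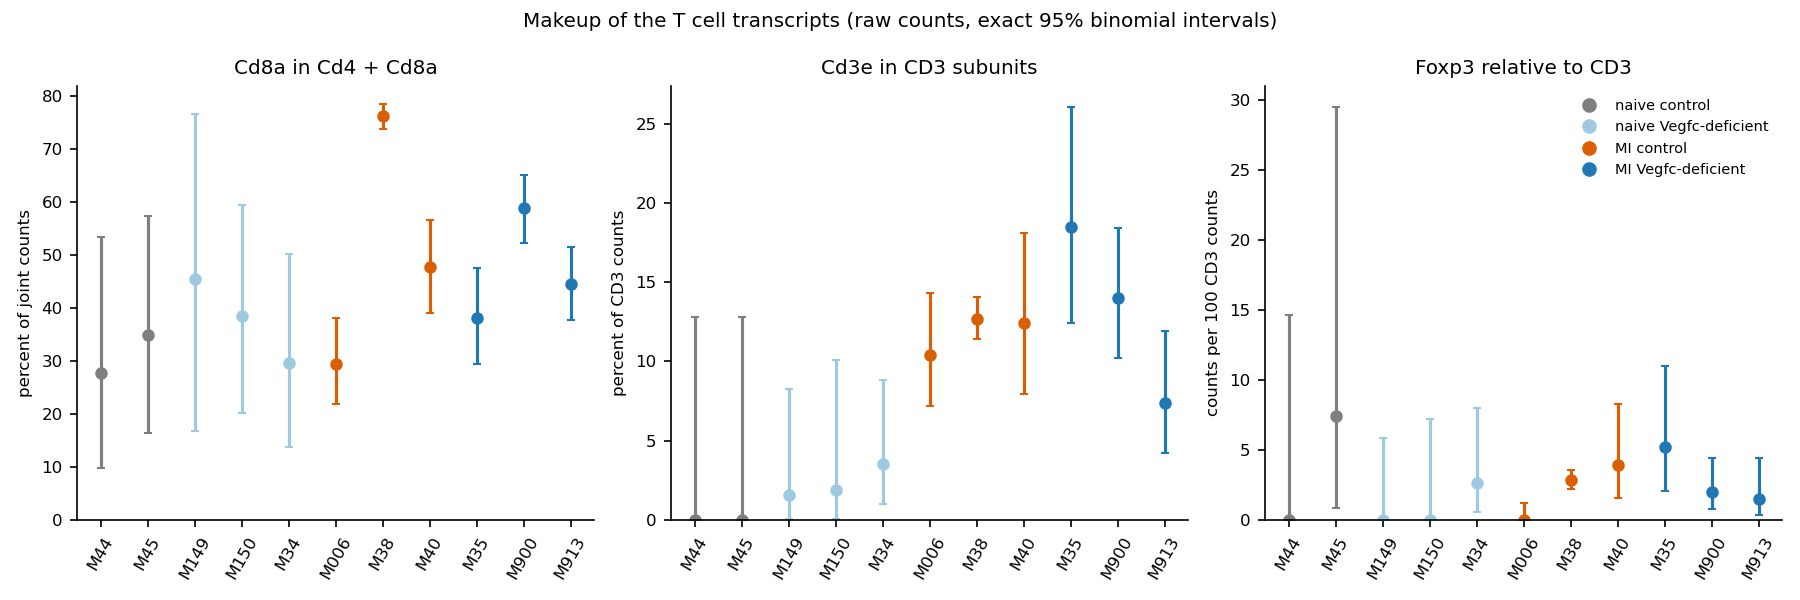
Share of Cd8a in the joint Cd4 and Cd8a counts, share of Cd3e in the CD3 counts and Foxp3 counts per 100 CD3 counts in every library, with exact 95% binomial intervals. M38 is highest in the first panel at 76.2%, the 5 naive libraries are lowest in the second at 0 to 3.54%, and in the third M38 lies among the other libraries.

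Of 21 other genes of T cell receptor signalling tested, 16 were called higher and 1 lower after MI in control mice, and 10 higher and 1 lower of 19 without M38, where 26.3% and 23.3% of all genes were called higher. Ubash3a, an inhibitor of receptor signalling, had 0 counts in both naive controls and 12, 122 and 12 in the MI controls, and Cd6, a receptor that modulates activation, had 1 and 0 counts in naive and 33, 298 and 35 in MI controls. Both were also called without M38. In Vegfc-deficient mice 6 of 21 were called higher and 1 lower (8 and 1 of 19 without M38), where 30% and 29.5% of all genes were called higher. Among them was Grap2, an adaptor (log2 fold change 2.59, SE 0.58, adjusted p = 0.00341, edgeR with Benjamini-Hochberg adjustment). Cd247, the zeta chain of the same complex, was at 1.78 to 4.80 CPM in naive and 1.91 to 4.36 CPM in MI hearts other than M38, at 15.5 CPM. The constant regions of the receptor chains themselves were not analysed here.

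Of 12 cytotoxic and effector genes tested, 10 were called higher and 1 lower in control mice (6 and 1 without M38) and 3 higher and 1 lower in Vegfc-deficient mice (7 and 1 without M38). The shares of all genes called higher were 26.3% (23.3% without M38) and 30% (29.5% without M38), so that 3 of 12 is not above the background. Among those called higher in control mice was Cxcr6, a chemokine receptor of tissue T cells (log2 fold change without M38 3.50, adjusted p = 0.00104, edgeR with Benjamini-Hochberg adjustment). Gzmk, a granzyme, was called as well, with 0 counts in both naive controls and 14, 26 and 18 in the MI controls. Eomes, a transcription factor of effector cells, was called in Vegfc-deficient mice, with 1, 1 and 0 counts in naive and 12, 41 and 25 in MI hearts. Of 12 costimulation and interleukin 2 genes tested, 4 were higher in control mice, Pdcd1, Il2rb, Tnfrsf9 and Cd27, of which Pdcd1 and Il2rb were also called without M38. In Vegfc-deficient mice Cd80, a ligand of CD28 and CTLA-4, was higher (log2 fold change 1.79, SE 0.40, adjusted p = 0.00368, edgeR with Benjamini-Hochberg adjustment). Pdcd1lg2, a ligand of PD-1, was called lower there, with 104, 1 and 11 counts in naive and 2, 15 and 8 in MI hearts, so that the groups overlapped and M149 held the high value.

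Of 8 other regulatory T cell genes tested, 4 were called higher in control mice (3 of 7 without M38) and 2 in Vegfc-deficient mice, the latter below the 30% of all genes. Lrrc32, which encodes the TGF-beta docking receptor GARP, was higher in both, at log2 fold changes of 0.98 (SE 0.27, adjusted p = 0.0125) and 1.16 (SE 0.24, adjusted p = 0.00209), as was Ebi3, a subunit of interleukin 27 and 35, at 1.64 (SE 0.34, adjusted p = 0.00296) and 1.08 (SE 0.29, adjusted p = 0.00989, edgeR with Benjamini-Hochberg adjustment). Tnfrsf18, the receptor GITR, was higher in control mice at 3.10 (SE 0.83, adjusted p = 0.0108, edgeR with Benjamini-Hochberg adjustment). These control values of Lrrc32, Ebi3 and Tnfrsf18 contain M38. Without it they were 1.10 (adjusted p = 0.00642), 1.24 (adjusted p = 0.00624) and 2.025 (adjusted p = 0.0228), by edgeR with Benjamini-Hochberg adjustment. Of 8 naive and memory T cell genes, 3 were higher and 2 lower in control mice and 4 higher and 1 lower in Vegfc-deficient mice, with Ccr7, the lymph node homing receptor, higher in both (3.06, SE 0.69, adjusted p = 0.00487, and 1.90, SE 0.56, adjusted p = 0.0149, edgeR with Benjamini-Hochberg adjustment). Without M38, 2 were called higher and 2 lower in control mice. Ccr7 was then at 2.00 there (adjusted p = 0.0036, edgeR with Benjamini-Hochberg adjustment). Over the 5 lists, 37 of 61 genes were called higher and 4 lower in control mice (23 and 4 of 58 without M38), where 26.3% (23.3%) of all genes were called higher, and 16 higher and 4 lower in Vegfc-deficient mice (25 and 5 of 58 without M38), where the share of all genes was 30% (29.5%). In Vegfc-deficient mice the 5 lists together were thus not above the background with all libraries. Many of these genes are also expressed by other cells of the heart, so the lists do not measure T cells alone.

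Genes whose profile was closest to that of the CD3 chains were sought among the 14779 genes, by the root mean square difference of log2 CPM over 11 libraries, each profile centred on its own mean. The 10 nearest outside the members were Ikzf3 (0.302), Ms4a4b (0.314), Gimap3 (0.36), Zbp1 (0.398), Themis (0.422), Bcl2l14 (0.429), Gm4951 (0.45), Skap1 (0.456), Gimap7 (0.456) and Mmp25 (0.473). Ikzf3, a lymphoid transcription factor, was at 11.4 CPM in M38, 1.14 to 2.14 CPM in the other MI hearts and 0.178 to 0.732 CPM in naive hearts. Among all genes, Lck ranked 7 by this measure, Cd8a 120 and Cd4 157, whereas Il2ra ranked 7220, Cd28 9521 and Ctla4 10626. Without M38, 4 of the 10 nearest were the same (Gimap3, Ikzf3, Ms4a4b and Skap1), Lck ranked 18, and Cd4 and Cd8a fell to 1070 and 2363.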

How the data were processed

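Ventricular RNA was made into TruSeq stranded mRNA libraries by the authors, who deposited raw read counts per Ensembl gene (25006 genes, 11 libraries, not normalized). The submitters' processing notes name cutadapt 1.13, STAR, HTSeq 0.6.1p1, DESeq2 1.14.1 and build mm10. The strand setting and annotation release of the counting were not given in the sources used here. Symbols were assigned to 24942 gene IDs, and coordinates and exon lengths came from GENCODE M21 (GRCm38).

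Genes were filtered with filterByExpr by group, which left 14779 and removed 10227, scaled by TMM and tested with edgeR 4.0.16 (glmQLFit, glmQLFTest) in 1 fit of all 11 libraries by group, p-values adjusted after Benjamini-Hochberg over the 14779 genes and a threshold of 0.05. SEs are the log2 fold change divided by the square root of F. Alternatives were DESeq2 1.42.0, its size factors, no filter, plain library totals, fits of only the 2 groups compared and each library left out in turn. Chi-square per degree of freedom between replicates ran from 8.65 to 171.51, so no pair agreed within sampling noise. Intervals and the floor of 3 counts cover counting error only. All members were named, with up to 4 genes per other list by the largest log2 fold change among those called and the 10 genes nearest to the CD3 profile. The members, lists and tests were chosen with earlier results of these data known. Some genes of the other lists are not reported here.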

Additional observations from a re-analysis of the deposited data

How the results depend on the processing

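No paired analysis was possible because the labels give the mice of different groups no shared replicate numbers. With M38 included, the 6 genes were called in control mice by DESeq2 and with plain library totals. With only the libraries of the 2 groups compared, Cd3g and Cd8a were not called. These fits contain M38, so no test is read from them and they do not check the calls made without it. In Vegfc-deficient mice 3 members were called by DESeq2, and 4 with only the groups compared and with plain library totals, beside 1. The shares of all genes called under these settings are not given here, so nothing is read from these counts for the members. Between naive genotypes 14 genes were called by DESeq2 and 2 with only the groups compared, beside 0, and between MI genotypes 51 by DESeq2, beside 0. Plain library totals moved the median of all genes by 0.446 log2 units in control and 0.497 in Vegfc-deficient mice (MI against naive), the medians of the members to 3.99 and 0.74, and in control mice Cd28 to 0.19 and Il2ra to 0.41. With no filter on low counts Il2ra was at 0.001 in control mice, and Foxp3, then fitted, was at 3.20 (SE 1.79) in control and 1.40 in Vegfc-deficient mice, not called (edgeR, Benjamini-Hochberg adjusted p = 0.191 and 0.545). With Cd3e alone as denominator, the ratio of M38 to the median of the other MI hearts was 0.923 for Lck (0.733 with all CD3 chains), 2.2 for Ctla4 (2.63) and 0.238 for Cd28 (0.287).

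With each library left out in turn, MI against naive gave 1 to 6 members and 4574 to 7636 genes called in control mice (median of members 1.82 to 4.09) and 0 to 4 members and 6909 to 8564 genes in Vegfc-deficient mice (median -0.012 to 0.81). Between naive genotypes 0 to 17 genes were called, with 17 without M149, 2 without M40 and 1 without M38 (median 0.048 to 1.47), and between MI genotypes 0 to 1 (median -2.15 to 0.061). Log2 fold changes changed sign for Ctla4 (-2.18 to 2.06) and Il2ra (-0.62 to 0.43) in control mice, for Cd3g (-0.017 to 0.51) and Cd3d (-0.012 to 0.43) in Vegfc-deficient mice, and between naive genotypes for Cd4 (-0.22 to 0.46), Ctla4 (-0.25 to 1.49), Cd28 (-0.77 to 0.25), Il2ra (-0.14 to 0.29) and Cd8a (-0.024 to 0.77). Without M38 and M149, 4 members were called in Vegfc-deficient mice, where 29.9% of all genes were called higher. Cd3e and Cd8a are among these members and are not counted against that share, since they passed the filter only through the infarcted libraries. The cause was not tested for any of these changes. In control mice only the fits that leave out M38 are free of it, so no member call is read from the others. The fits without 2 libraries, the lists and nearest genes without M38, the Cd8a share, and the calls and single genes under plain library totals were chosen after seeing the data. Naive controls numbered 2 and held 27 CD3 counts each, which limits every comparison with them.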
